A study of Mus musculus with 47 samples.

Results

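The genes described here are the neighbours of Nr1i2, the gene that encodes the pregnane X receptor (PXR), on mouse chromosome 16. They were taken by position alone: a gene belonged to the window when a probe for it started between bases 18248745 and 58248745 of build mm9, 20 Mb on either side of the Nr1i2 probe, and gave a signal well above background on 5 or more arrays of any 1 group. Of 861 probes for 539 genes in this window, 528 probes for 332 genes passed the filter, out of 32979 probes for 21711 genes tested over the whole array. Nr1i2 itself was left out. The question asked of each neighbour was whether its mRNA level differed between Pxr-/- and Pxr+/+ livers, in which sex and treatment, and at which distance from the targeted locus.

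Liver mRNA of 47 mice was read on 1-color arrays, 1 array per mouse. The mice were 6 months old and formed 8 groups: male and female, Pxr+/+ and Pxr-/-, untreated (control) or given antibiotics (ATB) for 2 weeks in the drinking water (ampicillin at 1 g/L, neomycin at 1 g/L and vancomycin at 0.5 g/L). Each group held 6 mice, except the control Pxr-/- males with 5. All were C57BL/6J offspring of Pxr+/- parents, themselves bred from Pxr-/- and C57BL/6J mice, so that both genotypes came from the same litters, and they were separated by sex and genotype from 5 weeks of age and killed at ZT6. Pxr is absent from the whole body of Pxr-/- mice, and 2 cages per group were used whose assignment to single mice is not given, so that cage and group cannot be told apart. The sexes and treatments give 4 strata in which the genotypes were compared (control males, ATB males, control females and ATB females).

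PXR is a nuclear receptor that senses drugs and other foreign compounds in the liver and gut and switches on cytochromes P450 and transporters. Genes that share a chromosome are inherited together, and more often so the closer they lie, which means that an allele placed at Nr1i2 by gene targeting travels through a cross with the stretch of chromosome around it. The window is gene rich and holds no single pathway: its members include plasma proteins of the hepatocyte such as Ahsg, Hrg and Kng1, enzymes of ketone and fatty acid metabolism, glycosylation enzymes, ubiquitin and SUMO enzymes, ciliary proteins and immune receptors. The strain of origin of the chromosome 16 segment in these mice was not tested.

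Each value below is the signal of a 60-base probe, so the stretch of mRNA that was read is shown for the members on which the results turn. The first 30 bases of each probe are given 5′ to 3′ as the array files hold them, with the position of the whole probe on mm9 and the strand of the transcript. No base is marked by capitals in these 30-base stretches.
Senp5, chr16:31983595-31983654, minus strand: catcttctacaataagcacatgctggatat
Pigx, the first probe, chr16:32087389-32087448, minus strand: cacataagaaagatggagacaccctcattg
Pigx, the second probe, chr16:32084515-32084574, minus strand: ctgtaagttttgtacagctaagtgttttct
Cep19, chr16:32108019-32108078, plus strand: atctcggcctcacaaatcctctgtgtgcag
Tctex1d2, chr16:32426977-32428870, plus strand: ggacaactacactcacgatgttttcatgaa
Pla1a, chr16:38396287-38396346, minus strand: tctaacgctttacataaatgcccttttagc
Ift57, chr16:49764123-49764182, plus strand: cttcaagcatattcagtgggtatttttgca
Cd47, chr16:49912306-49912365, plus strand: gcagaggcgtggcatctacagaagagcaga
Dubr, the first probe, chr16:50728099-50728158, minus strand: agcaacggcctgcttaccttactcctttaa
The Tctex1d2 probe has 60 bases but is given a longer interval of the genome, so it does not match 1 unbroken stretch. The array files name no exon or UTR for these positions, and an annotation of mm9 was not used here. Cep19 and Pigx are read away from each other, and their RefSeq transcription starts (build GRCm38.p6) leave 61 bases between them, chr16:32099728-32099788, shown on the plus strand because both genes were lower in Pxr-/- mice. Capitals mark the matches of GGGCGG, searched on both strands.
Cep19 and Pigx, between the starts: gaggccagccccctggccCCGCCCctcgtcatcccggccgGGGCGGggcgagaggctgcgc
These 61 bases were 83.6% G and C and held 2 matches of GGGCGG, which is also found in 38.2% of the promoters of all 27025 genes in the RefSeq table (300 bases each). Among the window genes, 9 pairs of oppositely read starts lay within 250 bases of each other: both genes were called in 1 pair (Cep19 and Pigx), 1 gene in another (Slc35a5, with Atg3) and neither gene in the other 7.

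Before the neighbours, the labels were checked. Cyp2c55, a cytochrome P450 on another chromosome, was higher in the Pxr-/- group of every stratum, by 2.36 ± 0.26 (log2 difference ± SE, as in all values of this form below) in control males up to 3.37 ± 0.25 in ATB males at one probe and by 1.78 ± 0.21 in control females up to 2.74 ± 0.21 in ATB males at the other. Cyp2c55 is a known target gene of PXR, so its level shows that the labels divide the mice into distinct sets, not which set lacks the receptor. The Nr1i2 probe was well above background in every Pxr-/- mouse, with a mean difference of -0.41 ± 0.09 over the 4 strata (adjusted p = 0.0029); where it lies relative to the targeted part of the gene is not given in the sources used here, so it does not check the genotype. All 8 hepatocyte markers were well above background in every group, and 0 of 8 differed between genotypes. The 75th percentile of the raw signal lay between 306 and 492.5 on the 47 arrays.

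In the mean of the 4 strata, 50 window probes of 44 genes differed between the genotypes. A probe is called here, and throughout, when its adjusted p does not exceed 0.05 and its fold is above 1.2. The 50 probes made up 9.47% of the window, against 3.31% of all tested probes and 4.5% of the 600 probes on the rest of chromosome 16. On the other 19 chromosomes between 2.2% (chromosome 2) and 4.07% (chromosome 10) of the probes were called. In the window 41 probes were lower in Pxr-/- mice (7.77%, against 2.72% of all probes) and 9 were higher (1.7%, against 0.591%). The median window probe differed by -0.07, the same as the median of all probes (-0.07), and the median size of the difference, without its sign, was 0.0875 in the window and 0.0787 over all probes. The excess of lower over higher calls depended on the normalization: 18% of the called window probes were higher here, but 44.7% after quantile normalization of all arrays and 31.1% with the authors' processed values. All 50 called probes kept their direction under each of these settings and had the same sign in all 3 wash batches of the arrays, and 47 had the same sign in all 4 strata.

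**Figure D1:**
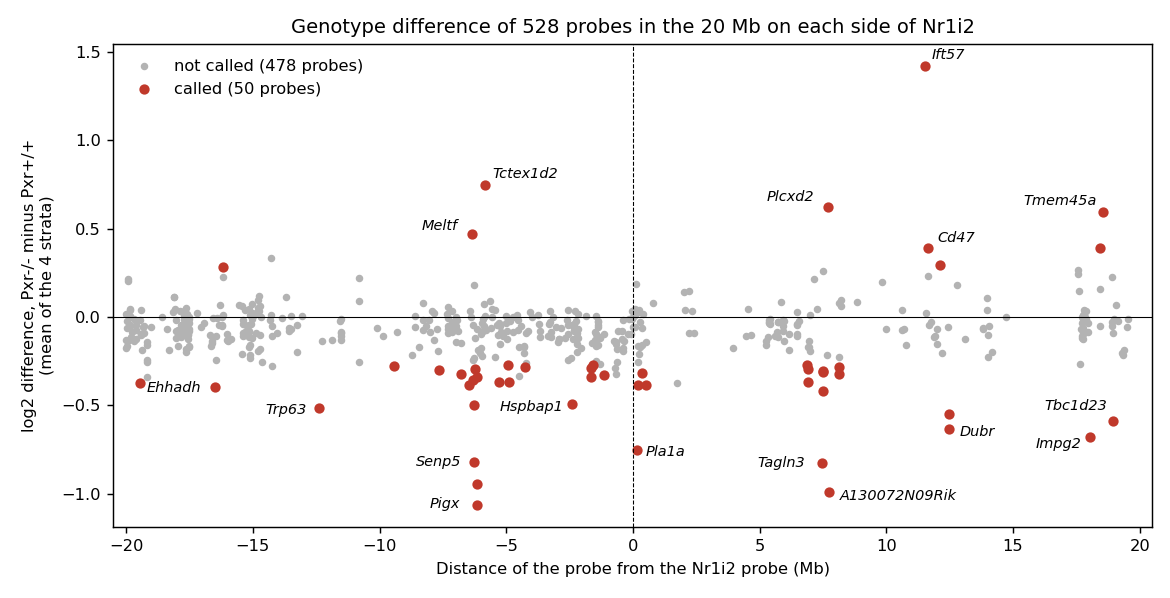
Log2 difference between Pxr-/- and Pxr+/+ livers (mean of the 4 strata, y axis) against the distance of each probe from the Nr1i2 probe in Mb (x axis), for 528 probes, with the 50 called probes in red. Most probes lie near 0, and the called ones form clumps near -6, 0, 7 and 12 Mb with Ift57 the highest at 1.42.

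The calls were unevenly spread. Within 10 Mb of the locus 37 of 277 probes were called (13.4%), and from 10 to 20 Mb 13 of 251 (5.18%). This contrast of near and far depended on the normalization. The 2 shares were about equal after quantile normalization of all arrays and after normexp with quantile normalization. In bins of 5 Mb the share was 2.16% and 2.44% in the 2 bins farthest to the left, then 16.7% between -10 and -5 Mb, 7.48% between -5 and 0, 12.9% between 0 and 5, 20% between 5 and 10, 16.7% between 10 and 15 and 9.76% between 15 and 20 Mb. The 3 called members beyond -15 Mb were Cldn5, an endothelial tight junction gene (-0.37 ± 0.11), Ehhadh, a peroxisomal enzyme of fatty acid oxidation (-0.39 ± 0.08), and Igf2bp2, an RNA-binding protein (0.28 ± 0.07). Not all strong differences were close: Ift57 at 11.52 Mb and the first Dubr probe at 12.48 Mb both had an adjusted p of 7.89e-11. Of the 100 probes of the array with the smallest p in the mean of the 4 strata, 18 lay in the window, and of the first 20, 4 did (both Pigx probes, Senp5 and Pla1a).

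**Figure D2:**
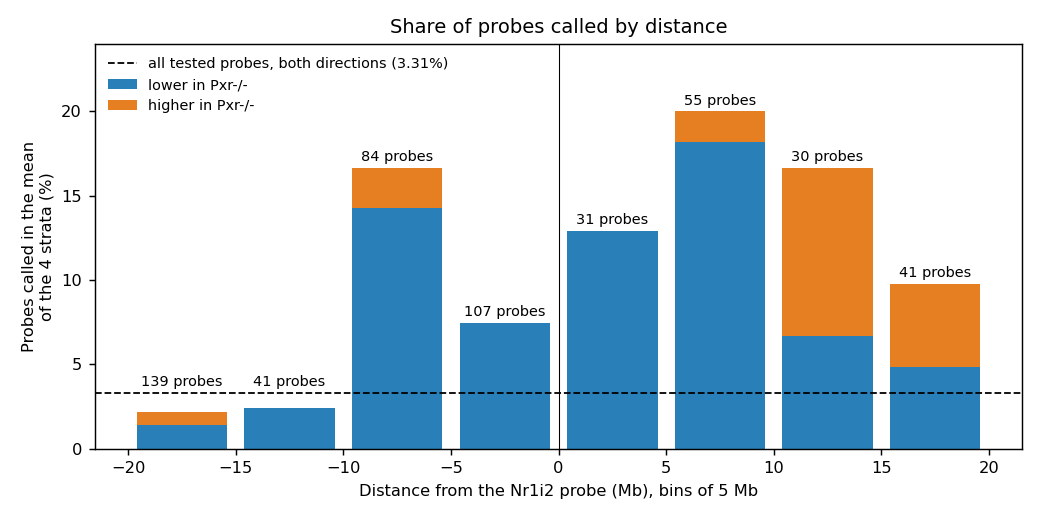
Share of probes called in the mean of the 4 strata (y axis, %) in bins of 5 Mb by distance from the Nr1i2 probe (x axis), split into lower and higher in Pxr-/- mice, with the number of probes above each bar. The dashed line is the share of all tested probes (3.31%), which the 2 bins at the left do not reach, while the bin from 5 to 10 Mb reaches 20%.

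The genes that lay nearest to Nr1i2 were not called. On the left these were Gsk3b, a kinase of glycogen and Wnt signalling, whose 4 probes differed by -0.09 to 0.00 in the mean of the strata, and the transcript AK141802 (0.04 ± 0.06). On the right they were Cox17, a copper chaperone of cytochrome c oxidase, with 3 probes between -0.05 and 0.05, and Popdc2 (0.19 ± 0.07, adjusted p = 0.083). The next gene, Pla1a at 0.15 Mb, was among the most different of the window.

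Pla1a encodes a phospholipase that the liver secretes and that acts on phosphatidylserine. In control males its signal was 11.14, 11.35 and 11.66 (lowest, median and highest of 6, on the normalized log2 scale used for all signals below) in Pxr+/+ mice, against 10.45, 10.76, 10.77, 10.9 and 11.07 in the 5 Pxr-/- mice. In ATB males it was 11.33, 11.71 and 11.87 against 10.42, 10.66 and 11.05. In control females it was 11.68, 12.06 and 12.24 against 10.87, 11.1 and 11.46. The groups did not overlap in these 3 strata, whereas in ATB females 1 of 6 Pxr-/- mice lay inside the Pxr+/+ range (11.67, 12.02 and 12.58 against 11.34, 11.53 and 11.87). The difference passed the test in ATB males (-0.98 ± 0.13, adjusted p = 8.4e-06) and control females (-0.92 ± 0.13, adjusted p = 6.07e-05), not in control males (-0.58 ± 0.14, adjusted p = 0.0903) or ATB females (-0.54 ± 0.13, adjusted p = 0.115). Adprh at 0.20 Mb, which removes ADP-ribose from arginine, and B4galt4 at 0.52 Mb, a galactosyltransferase, were also lower in the mean of the strata (-0.38 ± 0.07 and -0.39 ± 0.07), and within a stratum both were called in control females alone (-0.58 and -0.69). Whether their differences differ between strata was tested only as a contrast of the sexes and a contrast of the treatments. These tests, given below, called no probe of the window. A difference limited to 1 sex under 1 treatment was not tested.

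The densest group of calls lay at -6.5 to -5.8 Mb. Senp5, a protease that removes SUMO from proteins, was lower in Pxr-/- mice of all 4 strata. Its signal in Pxr+/+ mice was 7.24, 7.39 and 7.5 in control males, 7.07, 7.46 and 7.6 in ATB males, 6.9, 7.47 and 7.69 in control females and 7.01, 7.22 and 7.26 in ATB females. In Pxr-/- mice it was 6.21, 6.3, 6.32, 6.57 and 6.61 in control males, 6.29, 6.44 and 6.86 in ATB males, 6.29, 6.55 and 6.84 in control females and 6.34, 6.63 and 6.8 in ATB females. Every Pxr-/- mouse was thus below every Pxr+/+ mouse of its stratum. The differences were -0.98 ± 0.12 in control males (adjusted p = 1.41e-06), -0.92 ± 0.11 in ATB males (adjusted p = 1.25e-06), -0.82 ± 0.11 in control females (adjusted p = 2.45e-05) and -0.58 ± 0.11 in ATB females (adjusted p = 0.0144). The other SUMO proteases of the window, Senp2 and Senp7, had 9 probes between -0.08 and 0.03 in the mean of the strata, of which 0 were called.

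Pigx encodes a subunit of the mannosyltransferase that adds the first mannose to GPI anchors in the endoplasmic reticulum. The first of its 2 probes read 10.09, 10.32 and 10.44 in control Pxr+/+ males, against 9.11, 9.21, 9.32, 9.34 and 9.36 in control Pxr-/- males. In ATB males it read 10.24, 10.44 and 10.58 against 9.29, 9.38 and 9.88, and in control females 10.37, 10.56 and 10.7 against 9.29, 9.34 and 9.77. The groups did not overlap in these strata, and in ATB females (9.98, 10.28 and 10.78 against 9.32, 9.69 and 10.04) 1 Pxr-/- mouse lay inside the Pxr+/+ range. Differences of -1.05 ± 0.13, -0.94 ± 0.12, -1.13 ± 0.12 and -0.65 ± 0.12 (adjusted p = 1.41e-06, 2.54e-06, 8.22e-08 and 0.00586, in the order of the strata above) made this the member with the smallest p of the window in the mean of the 4 strata (-0.94 ± 0.06, adjusted p = 3.46e-15). The second probe, whose bases do not overlap those of the first, gave -0.94, -1.22, -1.43 and -0.67, of which the value of ATB females did not pass (adjusted p = 0.194).

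Cep19, a centrosomal protein gene read from the other side of the 61 bases shown above, was lower by a smaller amount. In control females its signal was 9.59, 9.82 and 10.0 in Pxr+/+ mice and 8.89, 9.24 and 9.66 in Pxr-/- mice, so that the groups overlapped, with a difference of -0.54 ± 0.12 (adjusted p = 0.0104). In the mean of the strata it was -0.34 ± 0.06 (adjusted p = 0.000241), and the other 3 strata gave values from -0.35 to -0.23 that did not pass. Pigz, the enzyme that adds a further mannose to GPI anchors, lies at -6.30 Mb and was called in control females (-0.74, with 0.14 in ATB males) and in the mean of the strata (-0.36 ± 0.11, adjusted p = 0.0242).

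Tctex1d2, a light chain of the dynein motor of cilia, changed the other way. Its signal in control males was 7.82, 8.11 and 8.65 in Pxr+/+ mice and 8.88, 8.88, 9.04, 9.12 and 9.17 in Pxr-/- mice. In ATB males it was 8.18, 8.39 and 8.46 against 8.54, 9.06 and 9.27, in control females 7.99, 8.2 and 8.54 against 8.62, 9.02 and 9.52, and in ATB females 7.82, 8.41 and 8.65 against 8.85, 8.97 and 9.1. Every Pxr-/- mouse lay above every Pxr+/+ mouse of its stratum. The differences were 0.85 ± 0.14, 0.68 ± 0.14, 0.81 ± 0.14 and 0.65 ± 0.14 (adjusted p = 0.000822, 0.00628, 0.000882 and 0.024, in the same order). Senp5 and Tctex1d2 were the window's members among the 10 probes of the array (0.0303%) whose genotypes did not overlap, in the same direction, in all 4 strata.

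**Figure D3:**
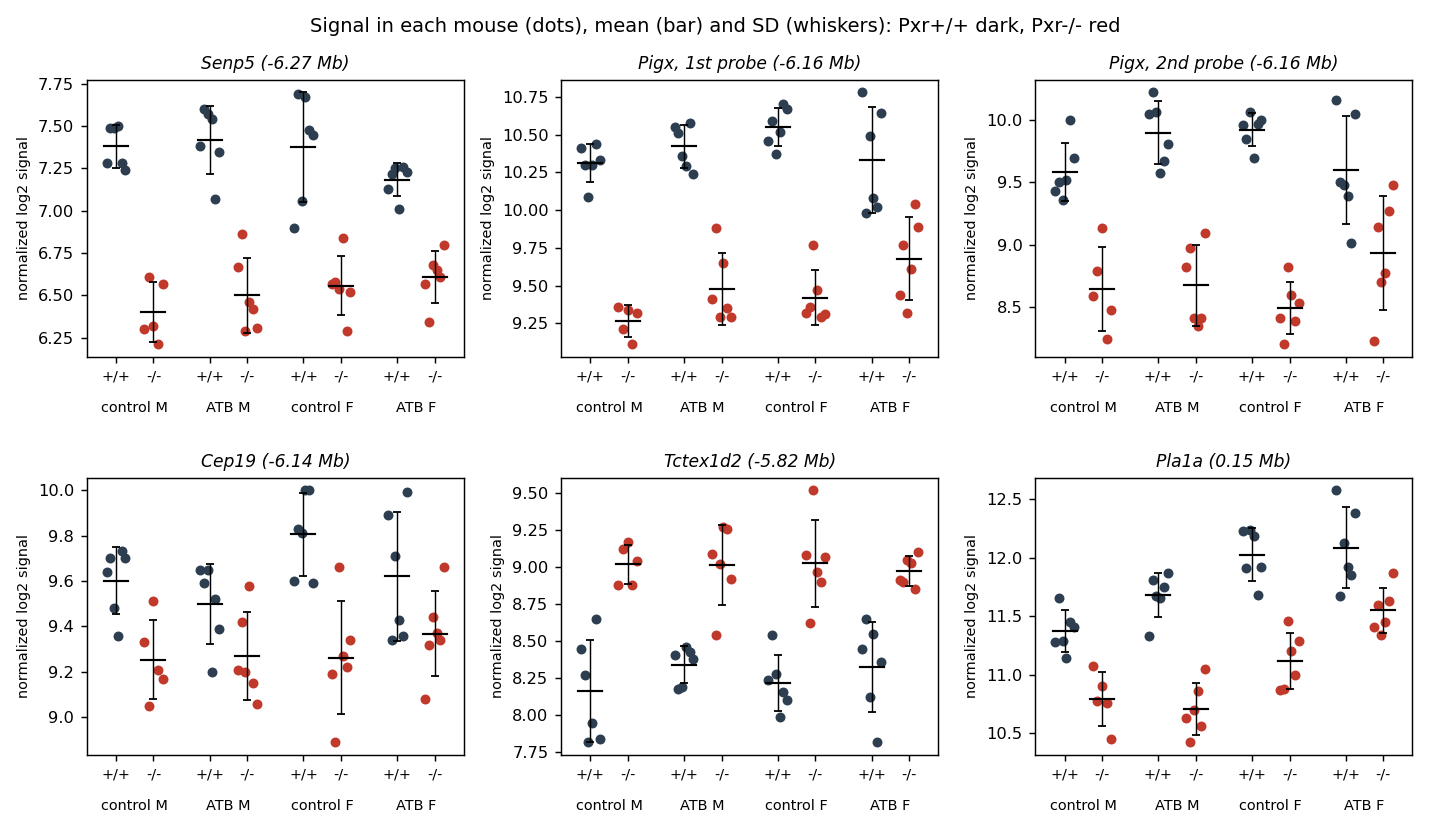
Normalized log2 signal (y axis) of each mouse for 6 probes of 5 genes near the locus, by stratum and genotype (x axis), with the mean as a bar and the SD as whiskers. Senp5 and Tctex1d2 separate the genotypes in all 4 strata, both Pigx probes and Pla1a overlap in ATB females only, and Cep19 overlaps in every stratum.

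Senp5, Cep19 and Tctex1d2 had only 1 tested probe each, and the other genes named in this stretch were called at 1 probe each. Dlg1, a scaffold protein of cell junctions, had 3 probes, of which 1 was lower (-0.38 ± 0.05, adjusted p = 4.25e-07) while the others stood at 0.04 and 0.00. Pak2, a kinase of the cytoskeleton, was lower at 1 of 2 probes (-0.29 ± 0.07), and Bdh1, the mitochondrial enzyme that interconverts the ketone bodies, at 1 of 2 (-0.32 ± 0.05). Meltf, an iron-binding membrane protein, was higher (0.47 ± 0.07, adjusted p = 2.48e-06), but its signal was close to background: 0 of 6 Pxr+/+ males of either treatment were well above it. In control males the difference did not pass the test (adjusted p = 0.534), and the groups overlapped. The measured log2 means there were 5.03 in Pxr-/- and 4.61 in Pxr+/+ mice, with 1.28-fold as the lower bound between the means. Of the 528 probes, 22 passed the filter only through Pxr+/+ groups and 6 only through Pxr-/- groups, which includes 4 and 1 of the called ones. For these called probes the filter drew on 1 genotype alone, so their calls are no separate support for a difference.

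Between -5 and 0 Mb, 8 probes were lower and 0 higher. Hspbap1, which binds a small heat shock protein, had a signal of 7.8, 8.27 and 8.51 in control Pxr+/+ males against 7.34, 7.54, 7.6, 7.69 and 7.82 in control Pxr-/- males. It was called there (-0.60 ± 0.12, adjusted p = 0.0107) and in ATB males (-0.56 ± 0.11, adjusted p = 0.00613), and in the mean of the strata the difference was -0.49 ± 0.06, while the other Hspbap1 probe gave -0.23 and was not called. Snx4, a sorting nexin of endosomes, was called at 1 of 4 probes (-0.27 ± 0.04), and Kalrn at 1 of 6 (-0.28 ± 0.07). Cd86, the T cell costimulator of macrophages and dendritic cells, was called at 3 of 4 probes in the mean of the strata (-0.34 to -0.27). Within strata it was called in control females alone, at 3 probes that were not all the same ones (-0.57, -0.65 and -0.52).

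Macrophage markers were compared between the genotypes in the same strata. Of 12 markers, 7 were called lower in control females and 0 in each other stratum, with medians of -0.87 in control females, -0.48 in control males, -0.41 in ATB females and 0.20 in ATB males. Their summed level (log2) ranged from 15.09 to 16.15 in control Pxr+/+ females and from 14.32 to 14.86 in control Pxr-/- females, and none of the 12 was at background in any group. The 4 Cd86 probes differed by -0.10 to 0.23 in ATB males, where that median was above 0. Single mice weighed on these ATB male values: at 1 Cd86 probe Pxr-/- replicate 1 read 7.61, and the other Pxr-/- ATB males 6.62 to 6.87. The summed macrophage level ran from 13.5 to 16.14 (median 14.25) in Pxr-/- ATB males, against 13.56 to 14.76 in Pxr+/+ ATB males. In bulk liver, fewer cells of a type and less RNA per cell cannot be told apart. Of the 17 tested genes listed for immunity and interferon response, 3 were lower in control females (Cd86, Klhl6 at -0.47 and Rtp4 at -0.65) and 1 was higher (Cd47 at 0.43). Nrros (-0.59) and Cldn5 (-0.86), which are not on that list and were named after their values were seen, were lower there as well. There 4 of 6 markers of sinusoidal endothelium were lower too (median -0.58), with a summed level of 14.24 to 14.74 in the Pxr+/+ group against 13.49 to 14.26 in the Pxr-/- group. These counts in control females stand beside 3.05% of all probes called there, 947 lower and 58 higher. In control males, ATB males and ATB females 0.146%, 0.876% and 0.158% of all probes were called. The part of macrophages and endothelial cells in the differences was not tested.

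To the right, from 6.8 to 8.2 Mb, 10 probes were lower and 1 was higher. A130072N09Rik had a signal of 8.98, 9.29 and 9.86 in control Pxr+/+ females against 7.34, 8.03 and 8.87 in control Pxr-/- females, with no overlap. It was called there (-1.22 ± 0.23, adjusted p = 0.00349) and in ATB males (-1.23 ± 0.23, adjusted p = 0.00235), with -0.69 and -0.83 in control males and ATB females. Tagln3, a calponin-family protein best known from neurons, was well above background in 6 control and 5 ATB Pxr+/+ females, in 4 Pxr+/+ males of either treatment and in 1 Pxr-/- mouse, so its level in Pxr-/- mice is only a bound: it was at least 1.85-fold lower in control females (measured log2 means 4.5 and 5.48, adjusted p = 0.00337). Since Tagln3 passed the filter only through Pxr+/+ groups, where it was high, its call is no separate support for a difference. Abhd10, a mitochondrial hydrolase, was lower in ATB males (-0.61 ± 0.11) and control females (-0.45 ± 0.11). Slc35a5, of the nucleotide sugar transporter family, was lower at 2 of 3 probes (-0.37 ± 0.06 and -0.30 ± 0.05), while Atg3, which starts 155 bases away on the other strand, gave -0.17 (adjusted p = 0.0167) at less than the fold asked for. Plcxd2 was higher (0.63 ± 0.10, adjusted p = 0.000104) with overlapping groups in all 4 strata.

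At 11.52 Mb lay the largest difference of the window. Ift57 encodes a subunit of the intraflagellar transport complex that carries cargo along cilia. In control males its signal was 5.78, 5.92 and 7.43 in Pxr+/+ mice and 7.49, 7.6, 7.73, 7.95 and 7.99 in Pxr-/- mice. In ATB males it was 5.85, 6.05 and 7.51 against 7.11, 7.68 and 8.03, in control females 6.22, 6.46 and 7.59 against 7.84, 8.07 and 8.53, and in ATB females 6.09, 6.85 and 7.77 against 7.86, 8.13 and 8.49. The Pxr-/- mice were higher in every stratum, and the genotypes overlapped in ATB males only. The differences were 1.61 ± 0.27, 1.38 ± 0.26, 1.495 ± 0.256 and 1.204 ± 0.256 (adjusted p = 0.000609, 0.00177, 0.000882 and 0.0232).

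The Pxr+/+ mice were not alike at Ift57. Of 24, 19 lay between 5.78 and 6.92 and 5 between 7.37 and 7.77, with no mouse in the gap of 0.45, while the 23 Pxr-/- mice ran from 7.11 to 8.53. The 5 were control male replicate 1 (7.43), ATB male replicate 5 (7.51), control female replicate 4 (7.59) and ATB female replicates 2 (7.37) and 4 (7.77). Without the first of these the control male difference was 1.87, without the second the ATB male one was 1.64, without the third the control female one was 1.70, and in ATB females it was 1.38 without replicate 4 and 1.30 without replicate 2. The same mice can be followed along the chromosome. At Cd47, at 11.66 Mb, 4 of the 5 were the highest Pxr+/+ mouse of their group and the fifth was the next highest, and at A730021G18Rik at 12.12 Mb the same held. At Dubr, where Pxr-/- mice were lower, 3 of the 5 were the lowest of their group at one probe and 1 at the other. At the called members left of the locus between -6.5 and -5.8 Mb, between 0 and 2 of the 5 stood nearest to the Pxr-/- mice in their group. With 2 of the 5 in 1 group, this count could reach 4 at most. It was not high only near Ift57, being 4 of 5 at Igf2bp2 at -16.19 Mb. At BU938176 (-4.88 Mb), an unnamed transcript (8.14 Mb) and Tbc1d23 (18.96 Mb) it was 3 of 5. With the next nearest counted as well, as for Cd47 above, the members between -6.5 and -5.8 Mb had 1 to 4 of the 5. The value was 4 there at Tctex1d2 and the second Pigx probe. Elsewhere it was also 4 at Igf2bp2, BU938176, Tagln3, Impg2 and the first Dubr probe. These are readings of single mice, given without a test because the mice were picked for their Ift57 signal. Why they stand apart was not tested.

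Cd47, the cell surface signal that keeps macrophages from engulfing a cell, was higher in Pxr-/- mice. In control males its signal was 10.04, 10.3 and 10.54 against 10.59, 10.62, 10.67, 10.77 and 10.82, with no overlap, and in control females it was 10.53, 10.67 and 10.97 against 10.84, 11.12 and 11.39, with 1 mouse of each genotype inside the range of the other. The difference was 0.39 ± 0.05 in the mean of the strata (adjusted p = 1.04e-06), called in control females (0.43 ± 0.10, adjusted p = 0.0169) and of like size elsewhere (0.32 to 0.42). The other Cd47 probe gave 0.23 ± 0.05 (adjusted p = 0.002), under the fold asked for. Dubr, a long noncoding RNA, was lower at its first probe (-0.63 ± 0.06). This probe read 5.79, 5.97 and 6.25 in control Pxr+/+ females and 4.97, 5.17 and 5.31 in control Pxr-/- females, and it was called in ATB males (-0.61), control females (-0.85) and ATB females (-0.56). The second probe passed the filter through control Pxr+/+ females alone and was not well above background in any Pxr-/- mouse, so its level there is a bound: it was at least 1.58-fold lower in control females (adjusted p = 2.87e-06).

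**Figure D4:**
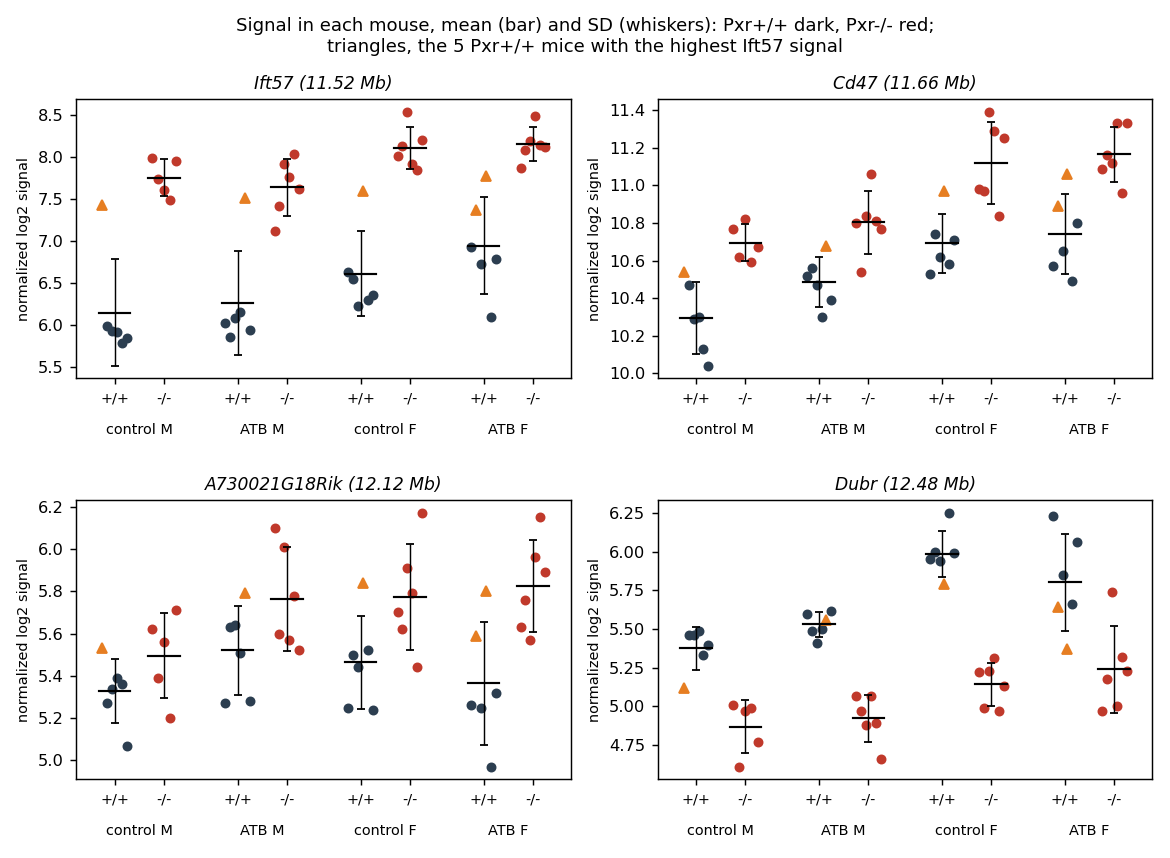
Normalized log2 signal (y axis) of each mouse for Ift57, Cd47, A730021G18Rik and the first Dubr probe, by stratum and genotype (x axis), with the mean as a bar and the SD as whiskers. Triangles mark the 5 Pxr+/+ mice above the gap at Ift57 (7.37 to 7.77), which lie on the Pxr-/- side of their group at Cd47 and A730021G18Rik and mostly so at Dubr.

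Beyond 18 Mb, 4 probes were called. Impg2, a proteoglycan known from the retina, was lower in ATB females (-1.0 ± 0.21, adjusted p = 0.024) and in the mean of the strata (-0.68 ± 0.11). Tbc1d23, which tethers vesicles at the Golgi, was lower at 1 of 3 probes (-0.59 ± 0.11), while its probes ran up to 0.23. Tmem45a (0.59 ± 0.17) and Abi3bp (0.39 ± 0.13) were higher with wide spreads: the control Pxr-/- females ranged from 5.6 to 8.23 at Tmem45a. Of the called genes, 26 had only 1 tested probe, among them Senp5, Cep19, Tctex1d2, Pla1a and Ift57. Genes with several probes often disagreed. Of the 18 called genes with more than 1 tested probe, all probes were called in 2 (Pigx and Dubr), a single probe in 13, and in 6 the probes differed in sign. The second Dubr probe passed the filter only through a Pxr+/+ group, where it was high, so its call is no separate support for Dubr.

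Stratum by stratum, 6 window probes were called in control males (1.14%, against 0.146% of all probes), 19 in ATB males (3.6%, against 0.876%), 36 in control females (6.82%, against 3.05%) and 7 in ATB females (1.33%, against 0.158%). All probes together were shifted by a median of -0.13 in ATB males and -0.11 in control females (-0.14 and -0.11 in the window), and by -0.04 and 0.01 in the other 2 strata. Genotypes that did not overlap were counted for 15, 33, 26 and 7 window probes in the same order (2.84%, 6.25%, 4.92% and 1.33%, against 0.782%, 3.15%, 1.84% and 0.406% of all probes). Without overlap in the same direction in 3 or more strata there were 9 (1.7%, against 0.121%), and in all 4 there were 2 (0.379%, against the 0.0303% above). Called the same way in 2 or more strata were 15 (2.84%, against 0.267%) and in all 4 strata 4 (0.758%, against 0.0485%): Senp5, the first Pigx probe, Tctex1d2 and Ift57. None was called in opposite directions in different strata. The difference had the same sign in all 4 strata for 34.1% of window probes and 29.4% of all probes.

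No window probe passed the test for a difference between the sexes (0 of 528, against 0.0606% of all probes) or between treatments (0 of 528, against 0% of all probes), in limma's contrasts of the genotype differences. At an unadjusted p under 0.05 there were 22 window probes for sex (4.17%, against 3.91% of all) and 28 for treatment (5.3%, against 4.54%). The smallest adjusted p were 0.96 and 0.998. Across the 528 probes the differences of 2 strata, which share no mouse but share slides, correlated with r between 0.525 and 0.664 (6 pairs of strata), against 0.192 to 0.411 over all 32979 probes. Genes are not independent replicates, and these r values are descriptions.

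Grouped by role, the called members were scattered. The counts below are of genes called at any probe and stand beside 44 of the 332 window genes called in this way. Of probes, 9.47% of the window and 3.31% of all were called, but a gene with several probes can be called at any of them. No list was tested. Of 11 tested genes for plasma proteins only Pla1a was called in the mean of the strata: Ahsg, Hrg, Fetub and the kininogens Kng1 and Kng2, abundant products of the hepatocyte, differed by -0.09 to 0.04. Of 9 metabolic enzymes 4 were lower (Ehhadh, Bdh1, Adprh and Abhd10) and none higher, with a median of -0.18 over their 15 probes beside -0.07 for all probes. Of 12 genes for GPI anchors, glycosylation and secretion 3 were lower (Pigx, Pigz and B4galt4), and of 11 ubiquitin and SUMO genes 1 (Senp5). Of 8 genes of cilia and centrosome, Tctex1d2 and Ift57 were higher and the rest gave values from -0.27 to -0.03, but the list does not hold Cep19, which was called lower. Of 15 signalling genes 3 were lower (Dlg1, Kalrn and Pak2), of 17 immune genes Cd86 was lower and Cd47 higher, and of 12 transporters and membrane proteins Slc35a5 was lower and Meltf higher. Of 9 genes listed for mitochondrial proteins, which leave out the mitochondrial enzymes Bdh1 and Abhd10 counted above, and of 12 for translation and RNA none was called by limma in the mean of the strata, although Mrpl40 (-0.19, adjusted p = 0.0388) in the one and Dgcr8, Eif4a2, Lsg1 and Ncbp2 in the other passed on the adjusted p without the fold. Ncbp2 did so in both directions, with -0.23 and 0.18 at its 2 probes.

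The promoters of the window genes were searched for direct repeats of a kind that nuclear receptors bind. RefSeq promoters (300 bases, GRCm38.p6) were at hand for 199 of the 332 window genes and 31 of the 44 called in the mean of the strata. A pair of AGGTCA with 3 bases between, on either strand, was found in 0 of the 199 and in 0.0074% of all 27025 genes, and a pair of AGTTCA with the same spacing in 0 of both. These letters were searched exactly, and no match says only that they are not in these 300 bases. Matches were so rare over all genes that 0 in the window could not set its genes apart. Other forms of binding site were not searched.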

How the data were processed

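Agilent mouse arrays with 1 color gave the liver mRNA levels of 47 mice. The authors scanned the arrays and read them with Agilent Feature Extraction; the deposited intensity is the median brightness of a spot on a linear scale, with no background subtracted. A deposited table of log2 values, which the authors filtered, corrected for wash batch and normalized with CrossNorm (33383 probes), served as an alternative. Here log2 of the median intensity was taken, spots of a probe were averaged, 422 non-uniform spot values were dropped, the effect of 3 wash batches was removed with group means kept, and CrossNorm was run (300 draws). Probes were tested when well above background on 5 or more arrays of a group, a rule chosen here.

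Limma 3.58.1 (R 4.3.3) fitted 8 groups and wash batch. Adjusted p-values are Benjamini-Hochberg over 32979 probes. The code was tested on simulated data. Precision is limited by the number of arrays.

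The members, the role lists and the rule for named genes (called in 2 or more strata, the 25 smallest p, the 2 nearest genes on each side, the largest called in 1 stratum, list examples) were chosen with earlier results of these data known; further called genes were named after their values were seen. Bounds use the lowest signal well above background on each array. Of the window probes, 22 were renamed through RefSeq accessions or synonyms, and 98 kept a name that RefSeq lacks. Replicate numbers do not pair mice: samples of 1 number in different groups had a median correlation of deviations of -0.051 (161 pairs). Drawings used matplotlib.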

Additional observations from a re-analysis of the deposited data

Results flagged for a closer look

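At the 25 probes of the members with the smallest p or with calls in several strata, 200 groups of mice were examined for a single mouse far from the rest (its gap to the nearest mouse over the range of the group, Dixon's criterion), and 8 met it, which does not exceed the 5% of groups that chance gives. That comparison pools all 200 groups and does not speak to any 1 probe. The criterion looks for a single mouse, so ATB Pxr+/+ females, with replicates 2 and 4 above the gap at Ift57, did not meet it there. Of the 8, 3 were Pxr+/+ mice at Ift57: control male replicate 1 at 7.43 (the others 5.78 to 5.98), ATB male replicate 5 at 7.51 (5.85 to 6.15) and control female replicate 4 at 7.59 (6.22 to 6.63). Tagln3 held 2 in ATB females, Pxr-/- replicate 1 at 4.78 (4.38 to 4.5) and Pxr+/+ replicate 1 at 6.67 (4.8 to 5.5). ATB male Pxr-/- replicate 2 was low at Trp63, a transcription factor of the p53 family (9.37, the others 9.99 to 10.23). Control female Pxr+/+ replicate 4 was high at Bdh1 (14.9, the others 14.22 to 14.43), and ATB male Pxr+/+ replicate 5 was low at B4galt4 (6.84, the others 7.07 to 7.19). No member's genotype difference passed the test of sex or treatment.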

How the results depend on the processing

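Over the 72 called values of the named members, 0 of 678 values under other settings and 0 of 3384 without 1 array changed direction, and 63 and 56 fell short of the call. Most of the calls lost under other settings were lost in fits of the 2 compared groups alone (19 of 47) and after normexp with quantile normalization (19 of 72). Counts moved more. Quantile normalization of all arrays called 12 window probes in control males, 21 in control females, 11 in ATB females, 8 the same way in all 4 strata and 20 within 10 Mb in the mean of the strata. The processed signal less its 75th percentile gave 16, 22, 13 and 10 for the first 4 of these counts. Normexp with quantile normalization gave 13, 18, 11 and 7, and 27 in the mean of the strata, 14 of them within 10 Mb. With quantile normalization of all arrays and with normexp, the share called within 10 Mb was thus about that from 10 to 20 Mb. The authors' values gave 12 in control males, 11 in ATB females and 8 in all 4 strata. A fit of only the 2 groups compared gave 16 in control females and 1 in ATB females. With no limit on the fold, 97 were called in the mean of the strata and 62 within 10 Mb. The cause was not tested. The share of called window probes that were higher was 39.1% with the processed signal and 40.7% with normexp. Against all probes, the window stayed above: 7.2% and 1.62% called with quantile normalization, 5.11% and 1.14% with normexp.

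Without 1 array, the counts ran from 5 to 8 in control males, 14 to 28 in ATB males, 18 to 65 in control females, 3 to 9 in ATB females, 46 to 55 in the mean of the strata, 34 to 39 within 10 Mb and 1 to 5 in all 4 strata. In control females the count was 65 without Pxr-/- replicate 3, 18 without Pxr-/- replicate 2 and 20 without Pxr-/- replicate 5. In ATB females it was 3 without Pxr+/+ replicate 5 or 6, and 4 without Pxr+/+ replicate 1 or Pxr-/- replicate 4 or 6. In all 4 strata it was 1 without ATB female Pxr+/+ replicate 5, and 2 without Pxr+/+ replicate 3 or 6 or Pxr-/- replicate 4 or 6 of that stratum. The replicate block, in which mice share only a number, called 50 probes in the mean of the strata, 49 of them among the 50 reported, and lost none of the 72 called values. Dropping the wash batch, slide as a block and both filters left every count within 1.5 times. Probes near background limit what can be said of Meltf, Tagln3 and Dubr: Tagln3 ran from -2.47 with the processed signal to -0.36 with normexp in the mean of the strata. In ATB females, the calls of Ift57, Tctex1d2, Impg2, Dubr and Senp5 were lost without any 1 of 8, 6, 6, 4 and 2 arrays, respectively.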
